A study of Mus musculus with 3 samples.

Results

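The genes described here write, copy and remove DNA methylation: the DNA methyltransferases Dnmt1, Dnmt3a and Dnmt3b, their cofactors Dnmt3l and Uhrf1, the Tet enzymes Tet1, Tet2 and Tet3, and the glycosylase Tdg. They were taken as the probe sets whose only annotated gene symbol was one of these 9 names. Of the 9 genes, 8 were measured, by 11 probe sets, among 19057 genes with a single symbol. Tdg was not measured, because all 4 probe sets that list it also list the pseudogene Tdg-ps2. The samples are total RNA of R1, an embryonic stem (ES) cell line from mice of strain 129. The platform was the Affymetrix Mouse Gene 1.0 ST array, which places probes along the exons of each transcript. The 3 arrays are biological repeats of 1 group of 1 line, with no second condition, and how the cells were cultured is not stated in the labels. Precision is limited by having 3 arrays.

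In mammals Dnmt1 copies methylation of CG dinucleotides onto the new strand after replication, and Uhrf1 brings it to half-methylated sites. Dnmt3a and Dnmt3b methylate new sites, with Dnmt3l as a partner that has no catalytic activity of its own. Tet enzymes oxidise methylcytosine, and Tdg removes the further oxidised bases so that repair can restore an unmodified cytosine. Mouse ES cells are known for high Tet1 and Dnmt3l, and for levels of the de novo enzymes that increase as cells leave the naive state.

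The sequences before the start sites of these genes differed widely in the number of CG dinucleotides, the substrate of the enzymes. RefSeq promoters of assembly GRCm38.p6 were matched by symbol for all 9 genes, at 16 annotated starts, and the 250 bases before each start were counted. The windows of Dnmt3b, Dnmt3l and Tet2 are shown because the spread between repeats turned on Dnmt3b and Tet2, and because Dnmt3l, the partner of Dnmt3b, had a CG count near the median. Each runs 5′ to 3′ on the gene's strand, with CG in capitals.
Dnmt3b, chr2:153649199-153649448, plus strand: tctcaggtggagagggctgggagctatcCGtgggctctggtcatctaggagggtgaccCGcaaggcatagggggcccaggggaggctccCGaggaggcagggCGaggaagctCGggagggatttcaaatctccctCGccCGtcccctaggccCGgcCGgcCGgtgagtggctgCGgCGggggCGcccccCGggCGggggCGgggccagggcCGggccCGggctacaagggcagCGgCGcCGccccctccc
Dnmt3l, chr10:78042037-78042286, plus strand, the first of 3 starts: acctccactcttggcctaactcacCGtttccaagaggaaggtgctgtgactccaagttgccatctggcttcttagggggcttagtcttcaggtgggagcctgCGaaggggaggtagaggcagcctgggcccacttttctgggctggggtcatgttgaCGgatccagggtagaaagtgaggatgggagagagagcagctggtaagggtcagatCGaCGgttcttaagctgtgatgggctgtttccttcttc
Tet2, chr3:133544391-133544640, minus strand: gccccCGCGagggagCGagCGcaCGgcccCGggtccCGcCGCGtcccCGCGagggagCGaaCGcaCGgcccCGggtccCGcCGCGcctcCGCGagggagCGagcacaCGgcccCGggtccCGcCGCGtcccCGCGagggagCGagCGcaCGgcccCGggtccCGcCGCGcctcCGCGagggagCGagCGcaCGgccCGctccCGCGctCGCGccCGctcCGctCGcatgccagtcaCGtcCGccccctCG

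The Tet2 window held 51 CG, the Dnmt3b window 21 and the Dnmt3l window 5, against a median of 6 over 32851 promoter windows of the same length. Only 0.0487% of those windows held more CG than that of Tet2, and 14.8% held more than that of Dnmt3b. The Tet2 window is a tandem repeat: shifted by 42 bases it matched itself at 77.9% of positions. Over all windows the median best match, at shifts of 20 to 100 bases, was 34.4%, and 0.0639% of windows matched themselves better than Tet2. The other starts of Dnmt3l held 4 and 3 CG. The starts of Dnmt3a held 38, 40 and 15 CG, those of Tet1 and Tet3 15 and 17.

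Dnmt1 and Uhrf1, the maintenance pair, each had 1 start with a match to an E2F motif, the site of factors that drive genes of DNA replication. The letters searched on both strands were TTTCGCGC, TTTGGCGC and TTTCCCGC, and the match is in capitals in the windows that hold it.
Dnmt1, chr9:20952624-20952873, minus strand: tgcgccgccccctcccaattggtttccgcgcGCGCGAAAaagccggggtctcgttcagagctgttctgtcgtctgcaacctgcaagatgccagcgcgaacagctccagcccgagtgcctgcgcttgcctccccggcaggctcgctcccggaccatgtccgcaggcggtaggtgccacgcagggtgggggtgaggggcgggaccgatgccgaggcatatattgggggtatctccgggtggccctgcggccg
Uhrf1, chr17:56304063-56304312, plus strand: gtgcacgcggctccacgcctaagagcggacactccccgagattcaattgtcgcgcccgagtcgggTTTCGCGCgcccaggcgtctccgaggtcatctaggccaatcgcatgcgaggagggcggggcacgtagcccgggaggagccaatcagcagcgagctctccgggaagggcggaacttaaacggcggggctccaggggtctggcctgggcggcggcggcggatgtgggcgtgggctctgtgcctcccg
Of the 16 windows 2 held this motif, against 1.53% of all windows. Both are rich in CG, with 26 for Dnmt1 and 30 for Uhrf1, and 8.56% and 5.19% of all windows held more. The other starts held 7 and 2 CG for Dnmt1 and 10 for Uhrf1. The matched letters themselves contain CG, and the motif was not counted in windows of like CG count. The octamer ATGCAAAT, bound by Pou5f1, was in 0 of the 16 windows and in 1.60% of all windows. The E-box CACGTG was in 3 windows, 1 each of Dnmt3a, Dnmt3l and Tdg, and in 6.02% of all windows. A match describes these letters and was not tested as a binding site.

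All 8 measured genes gave signal above background on all 3 arrays, as did 71.4% of 17871 genes outside the receptor families. Background on each array was set by 1186 genes for olfactory and vomeronasal receptors, families that ES cells are not known to use, as their 95th percentile, at log2 4.72, 4.60 and 4.61 in repeats 1, 2 and 3. Levels are log2 intensities, and they depend on each probe set's own probes, so they were not ranked between genes. The marks of the labelled cell type were present: all 8 ES cell markers, among them Pou5f1, Sox2, Nanog and Esrrb, lay above background on all 3 arrays.

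Dnmt1 read 9.79, 9.77 and 9.96 in repeats 1, 2 and 3 (9.84 ± 0.11, SD, n = 3). Uhrf1, which recruits it, read 10.33, 10.20 and 10.23 (10.25 ± 0.070). The highest and lowest array differed by 1.15-fold for Dnmt1 and 1.10-fold for Uhrf1. Of genes above background on all 3 arrays, 48.8% had a wider range than Dnmt1 and 69.4% a wider range than Uhrf1. Dnmt1 and Uhrf1 did not share an order, since Dnmt1 was highest in repeat 3 and Uhrf1 in repeat 1.

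Dnmt3a, the de novo enzyme needed for germline imprints, read 7.96, 7.76 and 8.11 in repeats 1, 2 and 3 (7.94 ± 0.17, SD, n = 3). Dnmt3b, the de novo enzyme prominent in the early embryo, read 9.01, 8.44 and 9.20 (8.88 ± 0.40). Its intensities were 516, 346 and 586, a 1.69-fold spread with repeat 2 apart from the others. Dnmt3l, the partner without catalytic activity, read 9.94, 9.86 and 10.09 (9.96 ± 0.11). All 3 genes of the de novo group were lowest in repeat 2 and highest in repeat 3, but the sizes were unequal. Between the highest and lowest array the log2 range was 0.76 for Dnmt3b, 0.34 for Dnmt3a and 0.22 for Dnmt3l. Without repeat 2, its lowest array, the range of Dnmt3b was 0.19, and leaving out an extreme array can only narrow a range.

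Tet1, the main methylcytosine oxidase of mouse ES cells, read 10.35, 10.22 and 10.52 in repeats 1, 2 and 3 (10.36 ± 0.15, SD, n = 3). Each of its 3 probe sets was lowest in repeat 2 and highest in repeat 3, with ranges of 0.25, 0.29 and 0.37 log2 units. They share a target, so they are not separate evidence. Tet2, the other Tet enzyme known in ES cells, read 9.14, 9.50 and 9.04 (9.23 ± 0.24), with intensities of 565, 726 and 526. It was the only gene of the 8 with its highest value in repeat 2, where 36.9% of genes above background were highest, and its 1.38-fold spread ran against that of Dnmt3b. Without repeat 2, its highest array, the range of Tet2 was 0.10 log2 units, against 0.46 with it. Leaving out an extreme array can only narrow a range.

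Tet3, the family member known from oocyte and zygote, lay close to background at 5.12, 5.10 and 5.14 in repeats 1, 2 and 3 (5.12 ± 0.023, SD, n = 3). These values were 0.40, 0.49 and 0.53 log2 units above the cutoffs. They lay below the 99th percentile of the receptor genes, at 5.52, 5.40 and 5.53. They also lay below the 95th percentile of 162 genes of other tissue-restricted families, at 6.17, 6.30 and 6.18. Its 2 probe sets averaged 5.18 and 5.06 and disagreed on the order of the repeats. The first was lowest in repeat 2 and highest in repeat 3, and the other was the reverse. The other 7 measured genes exceeded both higher cutoffs on all 3 arrays.

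**Figure D1:**
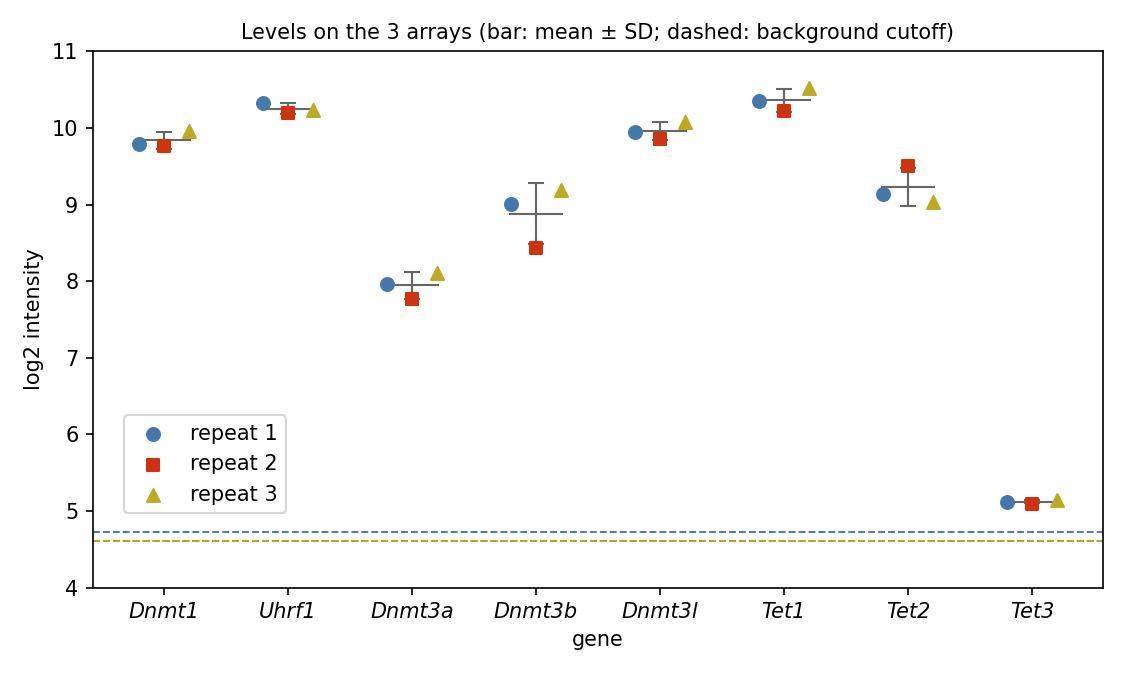
Log2 intensity of the 8 measured genes (vertical axis) on the 3 arrays, with a marker for each repeat, a bar at the mean with the SD (n = 3) and dashed lines at each array's background cutoff; the cutoffs of repeats 2 and 3, 4.60 and 4.61, overlie each other. Tet3 sits just above the cutoffs, and the points of Dnmt3b and Tet2 are the most spread; levels of different genes rest on different probes.

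The spread between repeats was set against that of all genes by the limma variance test, which compares each gene's variance over 3 arrays with the variance typical of its level. None of the 8 genes passed after Benjamini-Hochberg adjustment at 0.05, where 0.162% of 13591 genes did. Dnmt3b had an adjusted p of 0.161 (unadjusted p = 0.000756), with an SD 4.03 times the typical SD at its level. Tet2 had an adjusted p of 0.599 (unadjusted p = 0.0149) and an SD 2.58 times the typical one. These 2 genes had an unadjusted p under 0.05, as did 5.75% of all genes tested. Without repeat 2 the unadjusted p of the limma test was 0.168 for Dnmt3b and 0.446 for Tet2. Repeat 2 was the array farthest from the median for both genes, so leaving it out had to narrow their spread. For Dnmt3b the adjusted p of the limma test ranged from 0.148 to 0.982 over the alternative settings, with 0.982 the value without repeat 2. None was under 0.05, so its variation was not shown to exceed that of the table at large.

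The other members lay nearer the trend. The SD was 1.83 times the typical one for Tet1, 1.58 times for Dnmt3a, 1.30 times for Dnmt3l and 1.22 times for Dnmt1. Uhrf1 and Tet3 were below it, at 0.84 and 0.17 times. The median SD of the 8 genes was 0.132 log2 units, against 0.101 over the 12810 genes above background on all 3 arrays. Only Dnmt3b spanned more than 1.5-fold, as did 2.41% of those genes. A wider range than that of Dnmt3b was seen in 104 of them, and wider than that of Tet2 in 761.

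**Figure D2:**
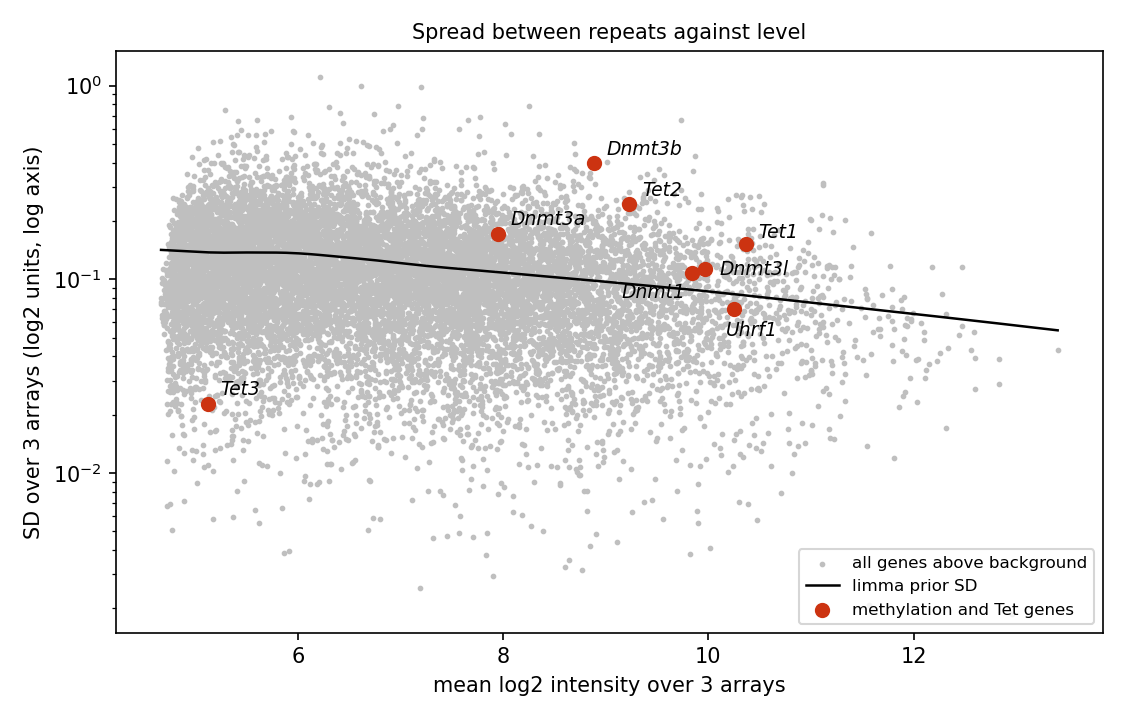
SD over the 3 arrays (vertical, log2 units on a log axis) against mean log2 intensity (horizontal) for the 12810 genes above background on all 3 arrays in grey, the prior SD of the limma fit as a line, and the 8 methylation and Tet genes in red. Dnmt3b, at 8.88 with an SD of 0.40, and Tet2, at 9.23 with 0.24, lie highest above the line among the 8, and Tet3 lies well below it.

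The direction was more uniform than the size. Repeat 2 gave the lowest value for 7 of the 8 genes, the exception being Tet2, while 34.7% of genes above background were lowest there. Repeat 2 lowest together with repeat 3 highest was the order of 6 of the 8 genes, against 17.6% of genes above background. For Dnmt1, Uhrf1 and Tet3 repeat 2 lay only 0.024, 0.038 and 0.024 log2 units under the next array, so their place in these counts rests on small gaps. Of the 2 probe sets of Tet3, 1 was highest in repeat 2. After centring each array on its median, 5 of the 8 were lowest in repeat 2, against 29.9% of genes, with Dnmt1 and Tet3 no longer so. These counts describe genes of 1 pathway on 3 arrays and carry no test, and repeat 2 was already known to stand apart in other genes.

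**Figure D3:**
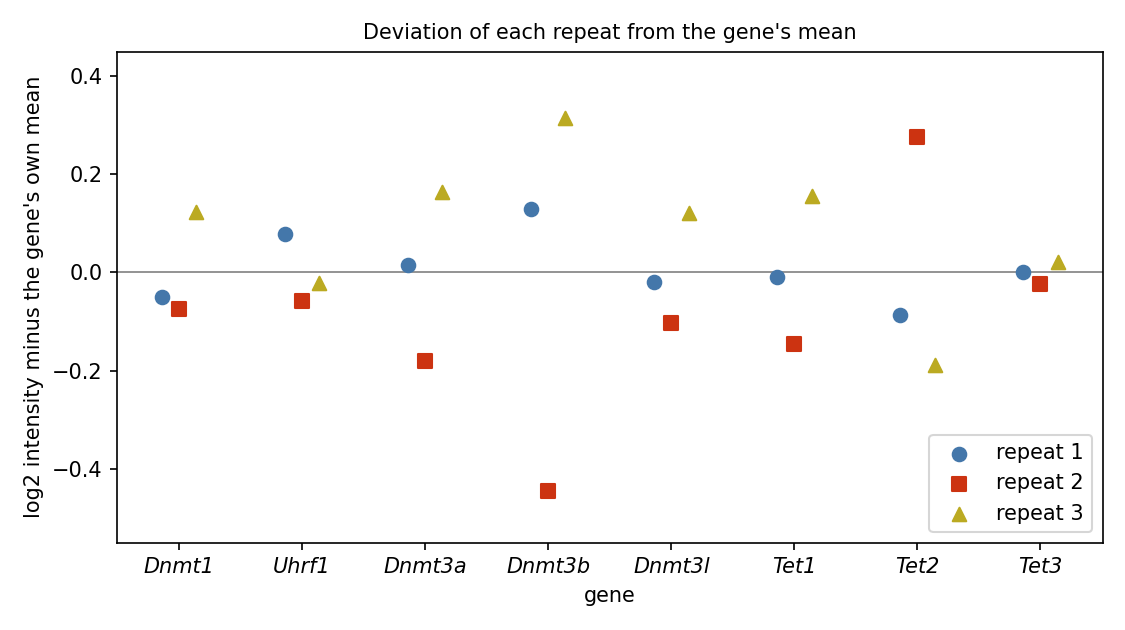
Log2 intensity of each repeat minus the gene's own mean over the 3 arrays (vertical axis), for the 8 measured genes. Repeat 2 lies lowest in 7 genes, farthest in Dnmt3b, and highest in Tet2.

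Tet2 and Dnmt3b ran in opposite directions across the repeats. The log2 difference of Tet2 minus Dnmt3b was 0.13, 1.07 and -0.16 in repeats 1, 2 and 3, a shift of 2.34-fold between repeats 2 and 3. Within the Tet pair, Tet2 minus Tet1 was -1.21, -0.71 and -1.48, a shift of 1.70-fold. For Dnmt3b and its partner, Dnmt3b minus Dnmt3l was -0.93, -1.43 and -0.89, a shift of 1.45-fold. The shift was smaller for Dnmt3b minus Dnmt3a, at 1.34-fold, and for Dnmt1 minus Uhrf1, at 1.21-fold. Tet2 and Dnmt3b had the largest SDs of the members and moved in opposite directions, so choosing this pair fixed a large shift. Each such difference depends on the probes of both genes, so its sign cannot be read. The shifts between arrays are a description, not tested and not set against other gene pairs.

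Markers of other cell states were read in the same way, and no test links them to Dnmt3b or Tet2. The marker lists, those of fibroblasts and other lineages below included, were chosen with earlier results of these data known. Repeat 2 was already known to stand apart in other genes, so the counts for it are not separate evidence. Of 9 measured genes of the formative epiblast, the state ES cells pass through on leaving naive pluripotency, 6 were lowest in repeat 2, against 34.7% of genes above background. The other 3, Etv4, Dusp6 and Cdh2, were highest there, by 0.13, 0.21 and 0.32 log2 units over the mean of the other repeats. Etv5, among the 6, was lowest by a small gap, at 9.94, 9.88 and 9.92 in repeats 1, 2 and 3. Of 9 base excision repair genes above background 6 were lowest in repeat 2 too, so the count was not particular to the formative list. Fgf5, a growth factor of that state, read 6.47, 5.93 and 6.71, and the transcription factor Otx2 read 8.94, 8.22 and 8.80. Of the 8 ES cell markers 6 were highest in repeat 2, against 36.9% of genes above background, with Tfcp2l1, a factor of the naive network, at 9.06, 9.55 and 9.06. The exceptions were Sox2, lowest in repeat 2 at 10.78, 10.76 and 10.79, and Klf4, highest in repeat 1 at 9.43, 9.29 and 9.27. None of these markers passed the limma variance test, where 0.162% of all genes did, and 3 of each list had an unadjusted p under 0.05, as did 5.75% of all genes.

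Of 17 fibroblast markers 15 were above background, where 71.4% of genes were, and 13 of the 15 were highest in repeat 2, against 36.9% of genes. The others of the 15 were Dcn, highest in repeat 1 at 8.06, 8.02 and 7.77, and Pdgfra, highest in repeat 3 at 6.20, 6.23 and 6.35. Pdgfra is also on the primitive endoderm list. The intensity summed over all 17 was 6372, 8748 and 6485 in repeats 1, 2 and 3, and without Fn1 and Vim, which gave much of it, 2576, 4437 and 2570. The summed intensity of the ES cell markers was 17634, 19139 and 17120. Acta2, Lox, Thbs1 and Timp3 were among the 0.162% of genes that passed the limma variance test, with adjusted p of 0.0082, 0.019, 0.0082 and 0.034. Lum was below background on all 3 arrays and S100a4 above it on 2, and both were lowest in repeat 2. Of 6 leukocyte markers 3 were above background, with Cd3e at 5.50 ± 0.18 and Laptm5 at 8.98 ± 0.23 (SD, n = 3), while Ptprc, Cd79a and Lyz2 were below it on every array. Of 8 primitive endoderm markers 6 were above background, with Gata6 at 5.93 ± 0.17 and Cubn at 5.59 ± 0.48, and Sox17 and Dab2 were below it on every array. Of those 6, 0 were lowest and 2 highest in repeat 2, against 34.7% and 36.9% of genes above background. The 3 leukocyte markers above background were all lowest in repeat 2. In a bulk sample fewer cells of a type and less RNA per cell cannot be told apart, and the part of these cell states in the values of Dnmt3b and Tet2 was not tested.

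**Figure D4:**
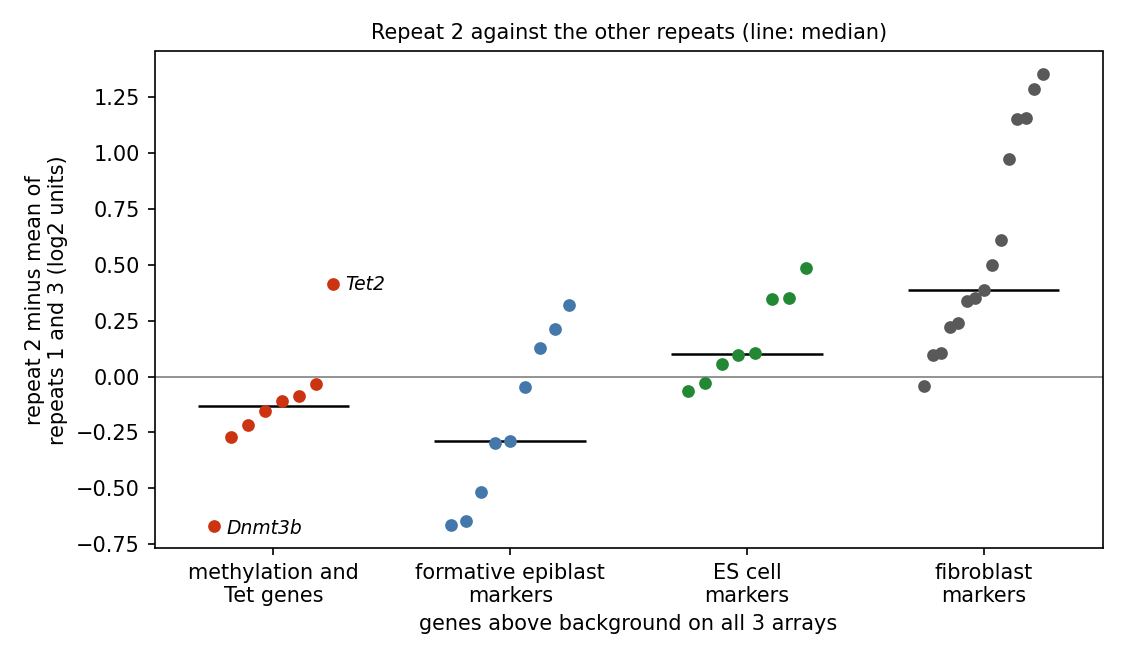
Log2 intensity in repeat 2 minus the mean of repeats 1 and 3 (vertical axis) for genes above background on all 3 arrays, 1 point a gene, with a line at each list's median. The median was -0.13 for the methylation and Tet genes, -0.29 for formative epiblast markers, 0.10 for ES cell markers and 0.39 for fibroblast markers.

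The genes whose 3 values ran most like those of Dnmt3b were found by distance, the square root of the summed squared differences between centred log2 values over the 3 arrays. They were Fgf5 at a distance of 0.038, the cyclin gene Ccnd1 at 0.048, the microRNA gene Mir329 at 0.068, the potassium channel gene Kcnj3 at 0.082 and Rbm43 at 0.085. Each was lowest in repeat 2 and highest in repeat 3, as the choice by distance requires. Kcnj3, at 5.68, 5.21 and 5.97 in repeats 1, 2 and 3, and Rbm43, at 5.76, 5.29 and 5.95, lay near background. In repeat 2 both were below the 99th percentile of the receptor genes, at 5.40. On all 3 arrays both were below the cutoff of the other tissue-restricted families, at 6.17, 6.30 and 6.18. Fgf5, at 5.93, and Mir329, at 5.87, were below that cutoff in repeat 2 only. Ccnd1 exceeded both cutoffs on every array. Ccnd1, which drives entry into the cell cycle, read 9.97, 9.45 and 10.15 in repeats 1, 2 and 3, and its adjusted p was 0.160 in the same test. With 3 arrays many genes can share an order, so the likeness is a description.

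Other genes of the pathway were read from 70 names in 8 lists, of which 60 were measured and 58 lay above background on all 3 arrays, against 71.4% of genes. The exceptions were Cxxc4, a CXXC protein that binds Tet2, at 4.46 ± 0.11, and the repair glycosylase gene Neil2, at 4.08 ± 0.076 (SD, n = 3). Neither exceeded the cutoff on any array. None of the 58 passed the limma variance test, where 0.162% of all genes did, and 5 had an unadjusted p under 0.05, as did 5.75% of all genes: Gadd45b, Zfp42 and Shmt2, and Zfp57 and Nsd1, which were named after their values were seen. Their median SD was 0.103 log2 units, close to the 0.101 of all genes. Repeat 2 was lowest for 23 of the 58 (39.7%) and highest for 19 (32.8%), shares near the 34.7% and 36.9% of all genes. Single lists differed. Repeat 2 was lowest for 6 of 9 base excision repair genes and highest for 2. It was lowest for 2 of 14 guides and opponents of de novo methylation and highest for 7.

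All 10 maintenance partners were above background, where 71.4% of genes were. They included the insulator protein gene Ctcf (9.83 ± 0.13, SD, n = 3) and Zbtb24 (5.50 ± 0.15), mutated in a human immunodeficiency with lost satellite methylation. The 6 measured readers of methylated CG were above background too, with Zbtb38 at 6.44 ± 0.18 and Zbtb4 at 4.98 ± 0.15. Zbtb4 lay below the 99th percentile of the receptor genes on every array, and Zbtb24 did in repeats 1 and 3. Among Tet partners 9 of 10 gave signal. Gadd45b, a stress-induced gene linked to demethylation, read 7.78, 8.28 and 7.37 and was highest in repeat 2 like Tet2 (adjusted p = 0.160). Rybp, a Polycomb subunit, read 8.71 ± 0.19.

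Of 10 base excision repair genes 9 gave signal, where 71.4% of genes did. Among them were the glycosylase gene Neil3 at 6.18 ± 0.27 and the scaffold gene Xrcc1 at 7.92 ± 0.16 (SD, n = 3). The 3 measured cytidine deaminase genes gave signal, with Apobec1 at 5.96 ± 0.23 and Apobec3 at 7.23 ± 0.10. All 14 measured guides and opponents of de novo methylation did as well. Dppa3, which keeps Uhrf1 from chromatin, read 5.81, 6.21 and 6.12, and Zfp42, an ES cell zinc finger gene also known as Rex1, read 11.24, 11.34 and 10.75 (adjusted p = 0.154). Zfp42 was thus lowest in repeat 3, where Dnmt3b was highest. The 6 measured genes of the methyl donor cycle included Mat2b at 9.16 ± 0.11 and the folate enzyme gene Shmt2 at 9.18 ± 0.21. Trdmt1, a relative of the methyltransferases that methylates transfer RNA, read 6.17 ± 0.11.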

How the data were processed

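The authors deposited linear probe set intensities, never negative, for 26730 probe sets on 3 arrays. The submitters' processing notes name GCOS 1.4, and how background, normalization and summary were done is not given in the sources used here. Array medians were 47.8, 46.7 and 46.8. Intensities were taken to log2 with a floor of 1, which changed no value, and were not normalized further. Names came from the platform annotation (20764 probe sets with 1 symbol, 1419 with several, 4547 with none), and 20678 gene identifiers matched RefSeq GRCm38.p6. Where a gene had several probe sets, their log2 values were averaged.

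Variance was tested with limma 3.58.1 (R 4.3.3): an intercept-only fit, a trended robust prior and the F distribution (2 and 9.87 degrees of freedom), for the 13591 genes that passed background on any array, with Benjamini-Hochberg adjustment. The test was tried on simulated data. Its p-values measure the spread between these 3 samples. Named genes are all members and the 5 genes nearest the member with the largest SD. Of each other list they are the members not above background and the 2 with the largest SD above it. Pou5f1, Sox2, Nanog, Esrrb, Klf4, Etv4, Etv5, Dusp6, Cdh2, Fn1, Vim, Thbs1, Timp3, Dcn, Pdgfra, Zfp57 and Nsd1, and the promoter motifs, were added by choice. The members and lists were chosen with earlier results of these data known. Alternatives were other cutoffs and background families, quantile normalization, median centring, subtraction of the receptor median, the highest probe set, all genes, other priors and leaving out each repeat. Python 3.11.15 was used.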

Additional observations from a re-analysis of the deposited data

How the results depend on the processing

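No paired analysis was possible because the 3 arrays form 1 group. The count of measured genes above background was 8 in 6 of the 8 alternatives run for it and 7, without Tet3, at the 99th percentile of the receptor genes and with other tissue-restricted families as background. The pathway count of 58 became 53 and 48 under those cutoffs and stayed at 58 in the rest. No gene of the 8 passed the variance test in any of 9 alternatives, while the count over all genes was 22 in the main setting, 39 after centring, 13 after quantile normalization, 10 without the robust prior, 1 without the trend, and between 0 and 34 when 1 repeat was left out. Repeat 2 was lowest for 5 to 7 of the 8 genes over 6 alternatives. With 3 arrays 29.9% to 39.1% of all genes were lowest there. Leaving out repeat 1 or 3, chosen after seeing the data, gave 7 each, as a gene lowest in repeat 2 among 3 arrays stays lowest there. With 2 arrays left 50.3% and 47.7% of all genes were lowest in repeat 2. Of 56 recomputed mean levels 54 moved by less than the SD between repeats. The exceptions were Tet3 with the receptor median subtracted (4.73) and with its highest probe set (5.18). Much of this was fixed in advance. Leaving out 1 of 3 arrays cannot move a mean by its SD, and median centring leaves the mean unchanged. The highest probe set is also the only one for 6 of the 8 genes. The side on which repeat 2 lay of the other repeats did not change for any of the 8 genes in the 48 values recomputed. That side could not change on leaving out repeat 1 or 3, because repeat 2 was the lowest or highest array for every gene. Nor could it change with the highest probe set for genes with 1 probe set. Signal near background limits Tet3.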
